A study of Mus musculus with 6 samples.

Results

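Genes of G2/M and the mitotic spindle were examined in E0771 cells, a mouse breast carcinoma line from C57BL/6 mice, with and without knockdown of lamin A/C. The set held 53 listed genes, chosen by name for their part in cell division and matched by gene symbol, and 52 of them were among the 10520 genes of the count table. Of these, 51 passed the filter on low counts and were tested among 8969 genes. Cdk1 was not analysed here, and Cenpf, a kinetochore protein with 7, 8 and 6 UMIs in the shControl libraries and 8, 10 and 12 in the shLmna libraries, fell below the filter. A UMI is a molecular tag that lets each captured RNA molecule be counted once.

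Both groups were puromycin-selected pools of cells that carried a lentiviral vector, the TRC2 pLKO.5-puro empty vector in shControl and the Lamin A/C shRNA plasmid TRCN0000317672 in shLmna, with 3 libraries in each group. The control was therefore a vector without an shRNA, and each group was a single selected line rather than several clones. MARS-seq, a 3' end RNA-seq method, was applied to bulk RNA. Nothing in the labels stated that the libraries of a group came from separate cultures, so the p-values measure the spread between these libraries, which may be technical. The shControl and shLmna libraries held neighbouring plate positions by group, and position and group cannot be told apart.

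Cells pass from G2 into mitosis when cyclin-dependent kinase CDK1, bound to A- and B-type cyclins, is switched on. The spindle then attaches to chromosomes at kinetochores, a checkpoint holds the cell until every kinetochore is attached, and the anaphase promoting complex (APC/C) marks cyclin B and securin for destruction so that the chromosomes separate. Most of these genes are transcribed in a wave late in the cycle, under the MuvB complex with B-MYB and FOXM1 and under the CCAAT-binding factor NF-Y, so their RNA is abundant in dividing cultures. A-type lamins form part of the nuclear lamina, which is taken apart at entry into mitosis. In bulk RNA, a smaller number of cells in G2/M and less RNA per cell cannot be told apart.

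Most of these genes differed little between shLmna and shControl cells. Only 3 of the 51 tested genes passed an adjusted p of 0.05 in the quasi-likelihood test of edgeR (Benjamini-Hochberg over all tested genes), or 5.88%, where 13.7% of all tested genes passed. Ccna2 and Spc24 were higher in shLmna cells, 2 genes or 3.92% against 7.96% of all tested genes. Cdc20 was lower, 1 gene or 1.96% against 5.78%. None of the 51 met the stricter criteria, which add to the adjusted p a Log2FoldChange beyond 1 in either direction and more than 5 normalized counts on average, and which 5.71% of all tested genes met. Fewer well-counted genes met them: 158 of the 5846 genes with a mean count of at least 50, and 0 of the 45 genes of the set kept there. At an unadjusted p of 0.05, 10 of the 51 genes passed in edgeR, or 19.6%, against 28.4% of all tested genes. DESeq2 and limma-voom each also called 3 of the 51 at the adjusted threshold, where they called 11.5% and 13.8% of all tested genes, and 0 by the stricter criteria.

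The direction of the small differences was mostly upward. The Log2FoldChange (shLmna over shControl) was above 0 in 37 of 51 genes, or 72.5%, against 50.4% of all tested genes, and its median was 0.16 against 0.00 over all tested genes. The values ran from -0.50 for Cdc20 to 0.88 for Cks2. The 95% interval lay between -1 and 1 in 46 of the 51 genes, with a median half-width of 0.36, so a change beyond 2-fold lay outside the interval for those genes. Over all tested genes this was so in 6431 of 8969, with a median half-width of 0.44. All 3 shLmna libraries lay above all 3 shControl libraries in 11 genes, or 21.6%, against 16.8% of all tested genes. They lay below in 5 genes, or 9.8%, against 15.7%.

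**Figure D1:**
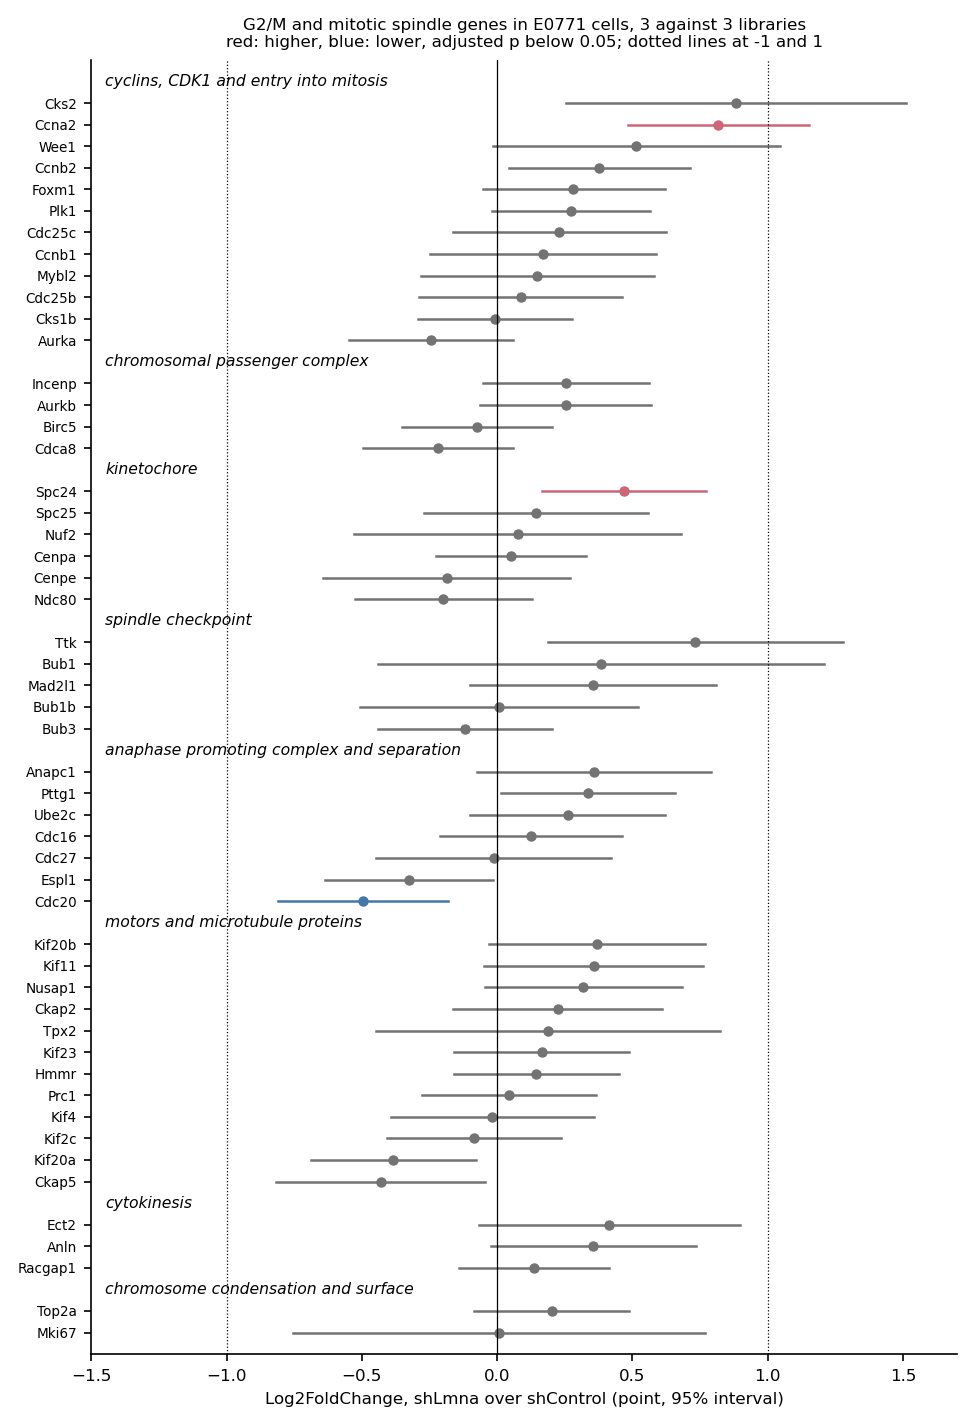
Log2FoldChange (shLmna over shControl, horizontal axis) of the 51 tested genes, grouped by role, with points for the estimate and lines for the 95% interval from 3 against 3 libraries. Ccna2 and Spc24 (red, higher) and Cdc20 (blue, lower) passed the adjusted p of 0.05, 46 intervals lay between the dotted lines at -1 and 1, and Mki67, at 0.01, changed sign under RLE scaling.

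Of all UMIs, the 52 genes took 0.698%, 0.710% and 0.710% in the shControl libraries, which held 2668357, 3242051 and 1896612 UMIs. The share was 0.746%, 0.822% and 0.767% in the shLmna libraries, which held 2706709, 2616671 and 1846208 UMIs. The groups did not overlap, with means of 0.706% ± 0.0068 and 0.778% ± 0.0394 (SD, n = 3), a ratio of 1.10. After TMM scaling the ratio of the summed counts was 1.06. Of the 5 genes with the highest counts in shControl, the mean was higher in shLmna for Ube2c and lower for Cks1b, Birc5, Cdc20 and Cdca8, of which Cdc20 alone passed the test. Without shControl replicate 3 and shLmna replicate 2, set apart below, the mean shares of the 52 genes were 0.704% in shControl and 0.756% in shLmna.

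The targeted gene, Lmna, which encodes lamins A and C, had 2066, 2794 and 1764 UMIs in shControl and 1035, 1023 and 713 in shLmna libraries. Its Log2FoldChange was -1.20 (SE 0.13, adjusted p = 3.546e-05 in edgeR), and the groups did not overlap. Of 7 carcinoma epithelium markers 4 were in the table, and their summed level was 262 to 328 CPM (UMIs scaled to the library total) in every library, nearly all from Krt8 (516 to 814 UMIs). Epcam had 8 to 46 UMIs, and Cdh1 was not among the genes of the table. Vim, a mesenchymal intermediate filament gene, had 10546 to 17461 UMIs. Leukocyte and endothelial markers summed to at most 14.6 CPM. The fibroblast markers, of which Pdgfra and Pdgfrb of 4 listed were in the table, summed to 15.4, 17.9 and 14.2 CPM in shControl and 23.6, 24.8 and 24.9 in shLmna libraries, without overlap, and Dcn and Lum were not among the genes of the table. The higher sum came from Pdgfrb, with 26, 41 and 19 UMIs in shControl and 51, 49 and 36 in shLmna libraries. Pdgfra was not higher, with 15, 17 and 8 UMIs against 13, 16 and 10. The part of the difference in Pdgfrb in the results was not tested.

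Before the genes are described one by one, a pair of libraries has to be set apart. The 5 melanocyte genes in the table (Mlana, Pmel, Tyrp1, Dct and Mitf, of 6 listed) summed to 1385 UMIs in shControl replicate 3 and 1607 in shLmna replicate 2. They summed to 15 and 7 UMIs in shControl replicates 1 and 2, and to 2 and 5 in shLmna replicates 1 and 3. The study's other cell line, B16F10, is a melanoma line. Across the 8969 tested genes, the deviations of these 2 libraries from their group means had a Pearson r of 0.35. The r was also 0.35 between shControl replicate 1 and shLmna replicate 1, which hold few of these transcripts, and over all 9 pairs of a control and a knockdown library it ran from -0.37 to 0.35. Deviations from a group mean cancel out over the libraries of the group, so the 9 pairs depend on each other. The r of the replicate 1 pair is therefore no separate comparison free of these transcripts. All r values are a description, since the genes share the libraries.

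The mitotic genes stood out in these libraries about as often as other genes, but more often upward and less often downward. In 18 of the 51, or 35.3%, the level was the highest or the lowest of its group in both, against 37.4% of all tested genes. In 14 of the 51, or 27.5%, the level was the highest of its group in both, against 19.1% of all tested genes, and in 4 (Plk1, Pttg1, Kif4 and Prc1), or 7.84%, it was the lowest in both, against 18.3%. Bub1, a checkpoint kinase, had 25.3, 43.5 and 63.3 normalized counts in shControl and 30.7, 95.8 and 39.6 in shLmna libraries. Mki67, which coats mitotic chromosomes and is the usual proliferation marker, had 21.4, 25.6 and 54.0 against 19.6, 43.8 and 34.3. For both genes, the highest value of each group was in the library with melanocyte transcripts, and the groups overlapped. The part of those transcripts in the results was not tested, so each gene of the set that passed the test is also given without both libraries.

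**Figure D2:**
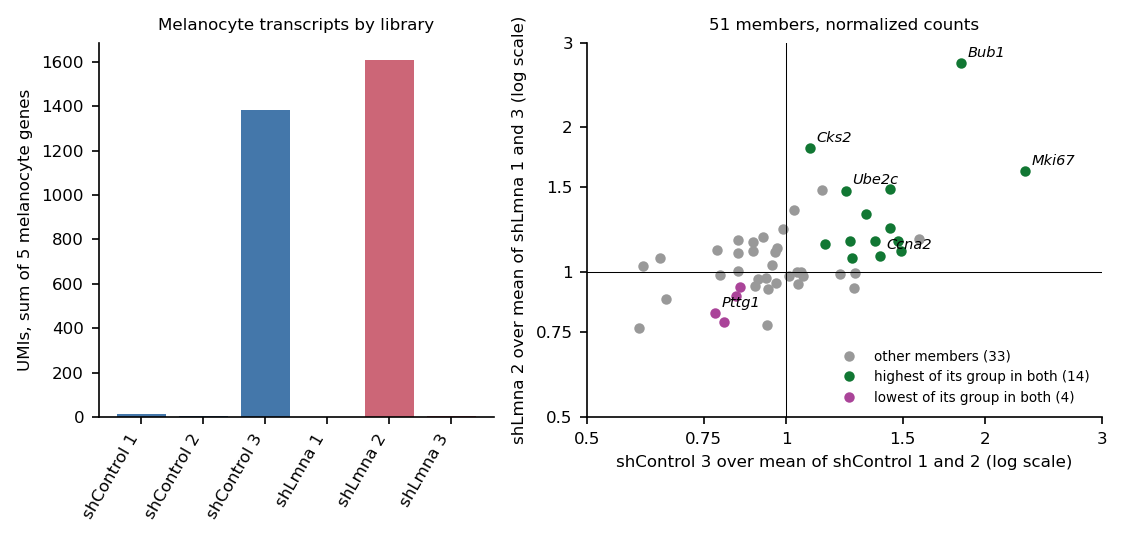
Left, summed UMIs of 5 melanocyte genes in each library, 1385 in shControl 3 and 1607 in shLmna 2 and at most 15 in the other 4. Right, for each of the 51 tested genes, the normalized count of shControl 3 over the mean of the other shControl libraries (horizontal, log scale) against that of shLmna 2 over the mean of the other shLmna libraries (vertical, log scale), with 14 genes highest of their group in both and 4 lowest in both.

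The promoters of these genes share letters that the choice of genes did not use. In RefSeq promoters (build GRCm38.p6, 250 bases before to 50 after the transcription start), 44 of the 53 listed genes had an entry, Cdk1 and Cenpf included. The cell cycle genes homology region (CHR, searched on either strand as TTTGAA and, found in fewer of these promoters, its variant TTTAAA), the element that MuvB binds, was found in 33 of 44, or 75.0%, against 18.2% of 8016 genes of the count table and 27.8% of all 27018 promoters. The NF-Y box CCAAT was found on either strand in 72.7%, against 38.9% and 37.9%. Both were found in 63.6%, against 7.45% and 10.9%, and 22 of 44 held at least 2 CCAAT boxes, against 15.5% and 12.2%. In Cdca8 a CHR and a CCAAT box share 1 base, and no other such overlap was found. A match is a description of the sequence and not a bound site.

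The 6 promoter stretches below are shown because they set the lowest and the highest Log2FoldChange of the set (Cdc20 and Cks2) beside both B-type cyclins, the checkpoint kinase Ttk and the topoisomerase Top2a. Each runs 5' to 3' on the strand of the gene from 120 bases before to 40 after the start, and capitals mark the CHR and the CCAAT boxes, of which the first reads TTCAAA and the second, as a short run, ATTGG when the match is on the opposite strand. Coordinates are in GRCm38.
Cdc20, chr4:118437304-118437463, minus strand: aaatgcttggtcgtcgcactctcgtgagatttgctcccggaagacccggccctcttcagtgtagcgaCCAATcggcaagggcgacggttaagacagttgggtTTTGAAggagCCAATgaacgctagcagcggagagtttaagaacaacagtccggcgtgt
Ccnb1, chr13:100786447-100786606, minus strand: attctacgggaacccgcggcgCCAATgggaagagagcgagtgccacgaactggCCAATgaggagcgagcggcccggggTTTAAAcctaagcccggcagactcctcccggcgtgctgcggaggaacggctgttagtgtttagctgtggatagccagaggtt
Ccnb2, chr9:70421515-70421674, minus strand: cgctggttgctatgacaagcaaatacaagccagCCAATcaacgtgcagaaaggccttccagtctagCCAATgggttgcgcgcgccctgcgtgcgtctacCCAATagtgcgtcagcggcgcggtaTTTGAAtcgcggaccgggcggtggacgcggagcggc
Cks2, chr13:51645112-51645271, plus strand: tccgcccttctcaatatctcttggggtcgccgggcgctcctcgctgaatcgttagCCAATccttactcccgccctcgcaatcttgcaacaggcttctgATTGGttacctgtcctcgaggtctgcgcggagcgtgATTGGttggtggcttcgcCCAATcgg
Ttk, chr9:83834569-83834728, plus strand: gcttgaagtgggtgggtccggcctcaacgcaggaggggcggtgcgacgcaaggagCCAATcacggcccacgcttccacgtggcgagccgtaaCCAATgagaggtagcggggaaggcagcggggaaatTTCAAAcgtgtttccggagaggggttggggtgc
Top2a, chr11:99024150-99024309, minus strand: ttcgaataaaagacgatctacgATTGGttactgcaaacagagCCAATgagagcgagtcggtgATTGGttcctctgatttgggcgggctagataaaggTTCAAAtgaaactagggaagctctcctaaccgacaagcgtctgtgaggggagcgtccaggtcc

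The lowest and the highest fold change thus came from promoters of both kinds. Cdc20 held 1 CHR between 2 CCAAT boxes, and Cks2 held 4 CCAAT boxes and no CHR in the 300 bases searched. Among tested genes of the set, the 31 with a CHR had a median Log2FoldChange of 0.05 and 19 above 0, and the 11 without had a median of 0.32 and 10 above 0. Among the other tested genes the medians were -0.01 (1229 with a CHR) and 0.00 (5656 without). These medians carry no GC correction and use all libraries, the 11 genes are few, and a link between the CHR and the fold change was not tested. Ccna2 and Spc24 had no promoter entry.

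**Figure D3:**
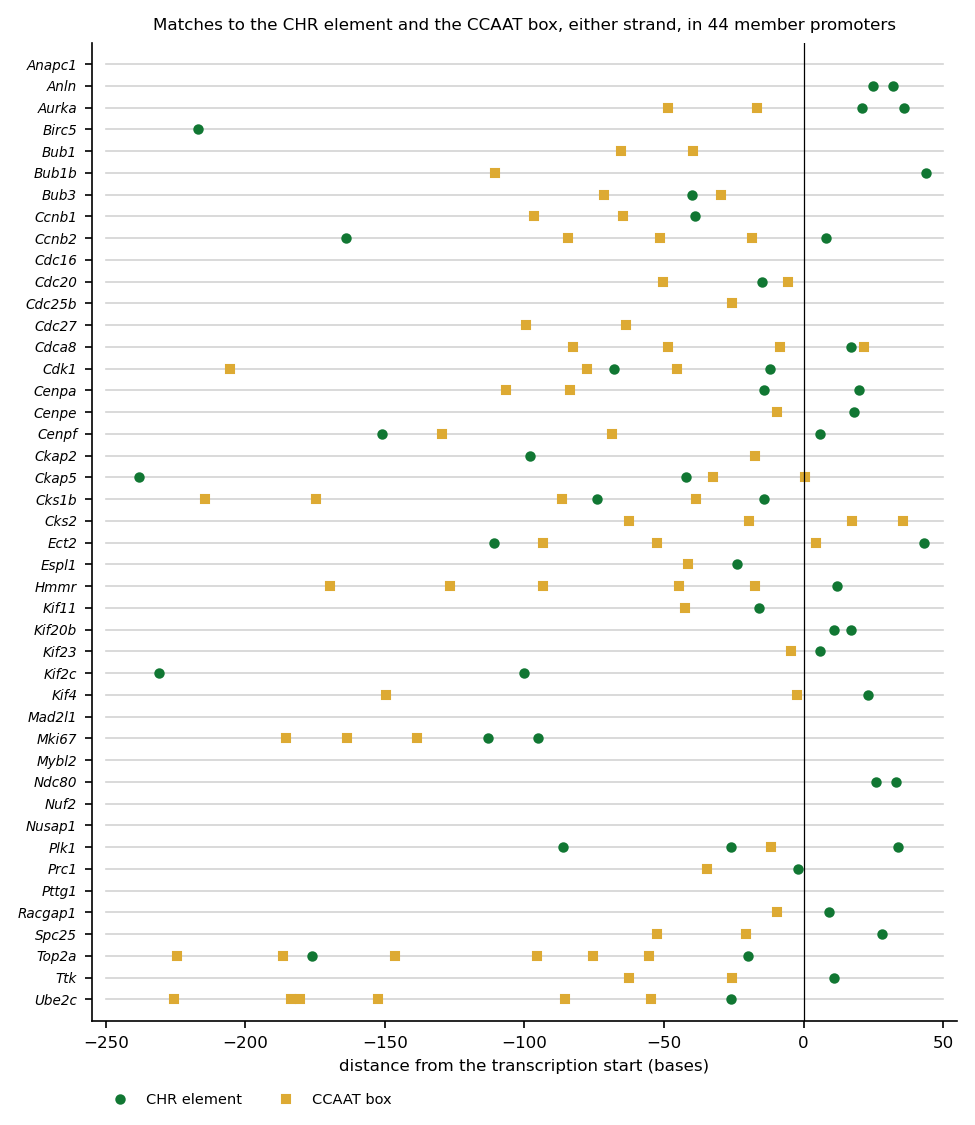
Position of each CHR (circles) and CCAAT box (squares), relative to the transcription start (horizontal axis, bases), in 44 promoters of the set (rows). In 28 promoters both motifs were found.

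The cyclins, kinases and regulators of entry into mitosis had 12 tested genes, of which 10 lay above 0 and 1, Ccna2, passed the test, with a median Log2FoldChange of 0.25. Ccna2 (chr3:36564865-36572150, GENCODE annotation of GRCm38, minus strand) encodes cyclin A2, which drives S phase with CDK2 and mitotic entry with CDK1. It had 312, 337 and 449 normalized counts in shControl and 634, 678 and 617 in shLmna libraries. Every shLmna value lay above every shControl value, and shControl replicate 3, with melanocyte transcripts, was the highest control. The Log2FoldChange was 0.82 (SE 0.16, 95% interval 0.49 to 1.15, adjusted p = 0.00323 in edgeR), a 1.76-fold higher level. Without both libraries with melanocyte transcripts it was 0.95 (adjusted p = 0.0004399), and with a correction for GC content 0.68 (adjusted p = 0.002859). The counted end of Ccna2 overlaps that of Exosc9, an RNA exosome gene on the opposite strand, whose Log2FoldChange was 0.03 (SE 0.19, adjusted p = 0.938). Whether the counting used strand is not given in the sources used here.

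Cks2, a small subunit that binds cyclin-dependent kinases, had the highest fold change of the set and low counts. It had 25.3, 25.6 and 27.7 normalized counts in shControl and 30.7, 68.4 and 44.9 in shLmna libraries. The groups did not overlap, and shLmna replicate 2, with melanocyte transcripts, was far above the others. The Log2FoldChange was 0.88 (SE 0.29, 95% interval 0.26 to 1.51, adjusted p = 0.0603 in edgeR), and without both libraries 0.54 (adjusted p = 0.289). It passed with the GC correction (0.92, adjusted p = 0.0339) and, at 1.12, met the stricter criteria without shLmna replicate 1. Its relative Cks1b was among the most abundant genes of the set, at 1712 ± 42.3 and 1704 ± 175 normalized counts (SD, n = 3), a Log2FoldChange of -0.01 (95% interval -0.29 to 0.28).

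The B-type cyclins did not pass the test. Ccnb1, the cyclin B1 that activates CDK1 at mitotic entry, had 576, 313 and 415 normalized counts in shControl and 524, 410 and 532 in shLmna libraries. The groups overlapped, and the Log2FoldChange of 0.17 (95% interval -0.25 to 0.59, adjusted p = 0.613) turned to -0.17 with the GC correction. Ccnb2, cyclin B2, had 210, 273 and 204 against 302, 317 and 277, without overlap, at 0.38 (95% interval 0.04 to 0.71, adjusted p = 0.127), and 0.26 without both libraries with melanocyte transcripts.

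Plk1, the Polo-like kinase that drives centrosome maturation and mitotic entry, had 890, 778 and 710 normalized counts in shControl and 1005, 914 and 956 in shLmna libraries. The groups did not overlap, but the difference was small, at 0.27 (SE 0.14, adjusted p = 0.209). Aurka, the spindle pole kinase Aurora A, had 530, 509 and 413 against 403, 406 and 419, at -0.25 (SE 0.14, adjusted p = 0.284). Its groups overlapped through shControl replicate 3 alone. Foxm1, the transcription factor that acts on late cell cycle promoters, had 308, 266 and 225 against 286, 348 and 341, at 0.28 (SE 0.16, adjusted p = 0.263), with overlap.

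The remaining regulators of entry did not pass either. Mybl2, which encodes B-MYB, was at 0.15 and at -0.06 without both libraries with melanocyte transcripts. The phosphatases that activate CDK1, Cdc25b and Cdc25c, were at 0.09 and 0.23, and the inhibitory kinase Wee1 was at 0.51 (95% interval -0.02 to 1.04, adjusted p = 0.192). All 4 had overlapping groups.

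**Figure D4:**
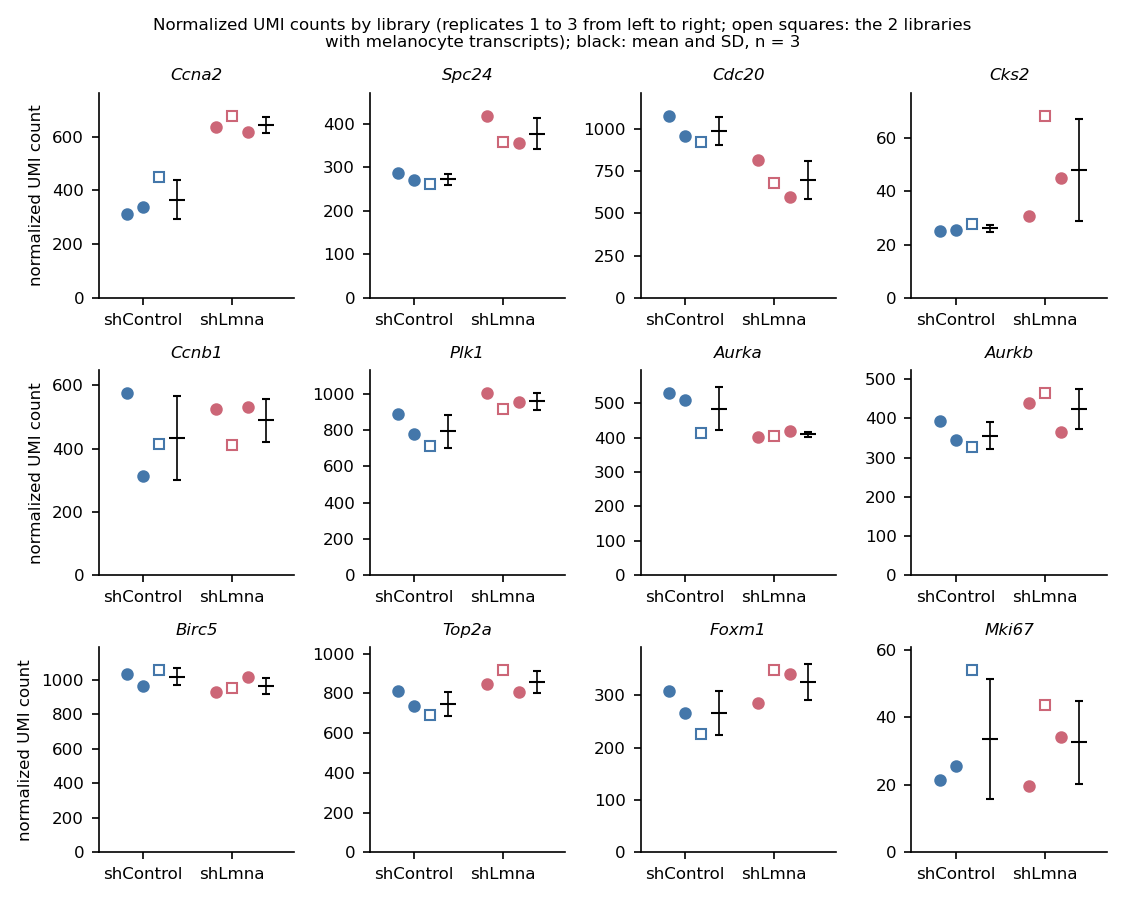
Normalized UMI counts (vertical axis, from 0) of 12 genes in the 3 shControl (blue) and 3 shLmna (red) libraries, with open squares for the libraries with melanocyte transcripts and black marks for the mean and SD (n = 3). Ccna2, Spc24, Cks2 and Plk1 had every shLmna library above every shControl library, Cdc20 had every shLmna library below, and the other 7 genes overlapped.

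None of the 4 genes of the chromosomal passenger complex, which corrects faulty spindle attachments and later directs cytokinesis, passed the test. Aurkb, its kinase Aurora B, had 395, 344 and 328 normalized counts in shControl and 439, 465 and 366 in shLmna libraries, with overlap, at a Log2FoldChange of 0.25 (95% interval -0.06 to 0.57, adjusted p = 0.285). Birc5, which encodes survivin, had 1036, 962 and 1057 against 927, 956 and 1018, at -0.07 (95% interval -0.35 to 0.20, adjusted p = 0.758). The scaffold subunit Incenp was at 0.26 with every shLmna library above, and Cdca8, which encodes borealin, was at -0.22 with every shLmna library below. The 4 subunits of this complex thus lay on both sides of 0, and all 4 intervals lay between -1 and 1.

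Kinetochore genes had 6 tested members and a median of 0.06. Spc24 (chr9:21755442-21760303, GENCODE annotation of GRCm38, minus strand), a subunit of the NDC80 complex that joins microtubules to the kinetochore, had 286, 270 and 261 normalized counts in shControl and 418, 357 and 355 in shLmna libraries. The groups did not overlap, and the Log2FoldChange was 0.47 (SE 0.14, 95% interval 0.17 to 0.77, adjusted p = 0.0398 in edgeR), a 1.38-fold higher level. Without both libraries with melanocyte transcripts it was 0.48 with an adjusted p of 0.0693. It also missed the threshold with each single library left out, at 0.37 to 0.51. In those fits 5.89% to 17.2% of all tested genes passed, against 13.7% with all libraries.

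The other subunits of the same complex did not pass. Ndc80 had its values in every shLmna library below every shControl library, at -0.20 (95% interval -0.53 to 0.13). Nuf2 was at 0.08 (95% interval -0.53 to 0.68) and Spc25 at 0.14 (95% interval -0.27 to 0.56). The centromeric histone Cenpa, at 856 ± 37.4 and 886 ± 53.2 normalized counts (SD, n = 3), was at 0.05, and the kinetochore motor Cenpe was at -0.19.

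None of the 5 spindle checkpoint genes passed the test, and 4 lay above 0, with a median of 0.35. Ttk, which encodes the checkpoint kinase MPS1, had 24.4, 37.3 and 31.6 normalized counts in shControl and 54.0, 62.0 and 38.3 in shLmna libraries. The groups lay close but did not overlap, and the Log2FoldChange was 0.73 (SE 0.26, 95% interval 0.19 to 1.28, adjusted p = 0.0712), with 0.59 (adjusted p = 0.220) without both libraries with melanocyte transcripts. Bub1 was at 0.38 (95% interval -0.44 to 1.21), and at -0.01 without those libraries. Mad2l1, which encodes the checkpoint effector MAD2, was at 0.35 and at -0.11 with the GC correction, and Bub1b and Bub3 were at 0.01 and -0.12.

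Genes of the APC/C and of chromosome separation had 7 tested members, with 4 above 0 and a median of 0.13. Cdc20 (chr4:118432901-118437352, GENCODE annotation of GRCm38, minus strand), the activator of the APC/C in mitosis and the target of the spindle checkpoint, had 1079, 958 and 921 normalized counts in shControl and 816, 682 and 597 in shLmna libraries. Every shLmna library lay below every shControl library. The Log2FoldChange was -0.50 (SE 0.15, 95% interval -0.81 to -0.18, adjusted p = 0.0376 in edgeR), to 0.71 of the control level. Without both libraries with melanocyte transcripts it was -0.52 with an adjusted p of 0.0533, and with the GC correction -0.47 (adjusted p = 0.0250). It also missed the threshold in thinned counts (-0.46, adjusted p = 0.0662) and without shControl replicate 1 (-0.44), shControl replicate 2 (-0.52), shLmna replicate 2 (-0.48) or shLmna replicate 3 (-0.40), with adjusted p of 0.104 to 0.154 in these 4 fits. In those 4 fits 5.89% to 8.64% of all tested genes passed, against 13.7% with all libraries. The counted end of Cdc20 overlaps that of Elovl1, a fatty acid elongase gene on the opposite strand, which was at -0.18 (SE 0.14, adjusted p = 0.429).

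The substrates and enzymes around Cdc20 did not pass the test. Pttg1, which encodes securin, had 631 ± 86.7 and 798 ± 95.4 normalized counts (SD, n = 3), at 0.34 (95% interval 0.01 to 0.66, adjusted p = 0.158), with every shLmna library above. Espl1, which encodes separase, the protease that securin holds back, was at -0.33 (95% interval -0.64 to -0.01, adjusted p = 0.157), with every shLmna library below. The APC/C subunits Anapc1, Cdc16 and Cdc27 were at 0.36, 0.13 and -0.01, and Ube2c, its ubiquitin-conjugating enzyme, was at 0.26 with its highest shLmna value, 1975 normalized counts, in replicate 2.

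None of the 12 motor and microtubule genes passed, and 8 lay above 0, with a median of 0.15 and a range of -0.43 to 0.37. Kif20a, the cytokinetic kinesin MKLP2, was at -0.38 (95% interval -0.69 to -0.08, adjusted p = 0.0906) with every shLmna library below, and its relative Kif20b was at 0.37 (95% interval -0.03 to 0.77, adjusted p = 0.213). Ckap5, a microtubule polymerase, was at -0.43 (adjusted p = 0.129) with overlap, and at -0.53 (adjusted p = 0.0490) without both libraries with melanocyte transcripts. Kif11, the motor that pushes spindle poles apart, was at 0.36, and Nusap1, a spindle microtubule stabilizer, at 0.32. The other 7 (Kif23, Kif2c, Kif4, Tpx2, Prc1, Hmmr and Ckap2) lay between -0.09 and 0.22.

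The cytokinesis genes Ect2, Anln and Racgap1, which activate and organize the contractile ring, lay at 0.41, 0.36 and 0.14 and did not pass. With the GC correction Ect2 was at -0.36 and Anln at -0.03. Top2a, the topoisomerase that untangles sister chromosomes, had 811, 736 and 689 normalized counts in shControl and 846, 917 and 807 in shLmna libraries, with overlap, at 0.20 (95% interval -0.09 to 0.49, adjusted p = 0.357). Mki67 was at 0.01 with a wide interval, -0.76 to 0.77 (adjusted p = 0.994).

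Ratios between related genes within a library, which need no scaling for library size, are given for 5 pairs. The pairs were chosen after their values were seen, with no test. How often other pairs of genes do not overlap was not counted, and the ratios carry no correction for GC content. Spc24 over Ndc80 was 1.53, 1.44 and 1.16 in shControl and 2.31, 2.07 and 2.13 in shLmna libraries. Aurka over Aurkb was 1.34, 1.48 and 1.26 against 0.917, 0.873 and 1.14. Kif20a over Kif20b was 3.03, 3.09 and 2.01 against 1.59, 1.54 and 1.58. These 3 ratios did not overlap between groups, nor did Ccna2 over Ccnb1 (0.542, 1.08 and 1.08 against 1.21, 1.65 and 1.16) or Cks2 over Cks1b (0.0153 ± 0.0004 and 0.0283 ± 0.0118, SD, n = 3).

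The GC correction lowered the fold changes of genes with low GC content, both in the set and among all tested genes. The 13 genes whose counted 3' end had under 40% GC had a median Log2FoldChange of 0.36, and 0.03 after the GC correction. The 38 genes with 40% or more had 0.13, and 0.15 after it. Among all tested genes under 40% GC the median was 0.18, and -0.13 after the correction. Of these, 65.1% lay above 0 before it and 39.6% after it. The median of the whole set went from 0.16 to 0.10 with the correction, and that of all tested genes from 0.00 to -0.03. After the correction, Ccna2, Cks2 and Spc24 passed upward and Cdc20 downward, or 7.84% of the set against 16.8% of all tested genes. Of the 51 genes, 34 then lay above 0, against 46.8% of all tested genes.

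**Figure D5:**
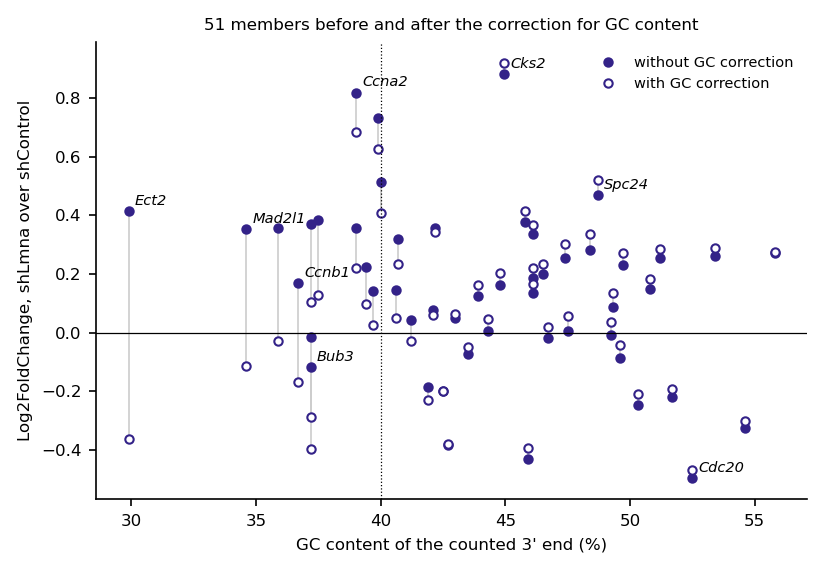
Log2FoldChange (vertical axis) of the 51 tested genes against the GC content of their counted 3' end (horizontal axis, %), before (filled) and after (open) the GC correction, joined by lines. Below 40% GC (dotted line) Ect2, Mad2l1, Ccnb1 and Anln changed sign, and Ccna2 fell from 0.82 to 0.68. Above 40% GC, Cks2, Spc24 and Cdc20 moved little.

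Other genes of the G2/M programme, from a list of 175 of which 154 were tested, had 12 genes higher and 7 lower at the adjusted p of 0.05. This was 12.3% in all, against 13.7% of all tested genes, with a median Log2FoldChange of 0.08. By the stricter criteria 6 were higher and 1 lower, or 4.55% against 5.71% of all tested genes. Tmpo, which encodes the lamina-associated polypeptide LAP2, had 42.9, 51.3 and 65.9 normalized counts in shControl and 258, 315 and 312 in shLmna libraries, at 2.48 (SE 0.19, adjusted p = 2.54e-06 in edgeR), and at 2.58 without both libraries with melanocyte transcripts. Smc4, a condensin subunit, had 7.8, 18.6 and 67.2 normalized counts against 94.0, 142 and 108 (adjusted p = 0.00829), with its highest value of each group in a library with melanocyte transcripts. Its Log2FoldChange without both was 2.87 (adjusted p = 1.661e-06). Its partner Smc2 was at -1.06 (adjusted p = 0.0392), and at -1.16 (adjusted p = 0.0334) without both, so this complex had a subunit in each direction. Sgol1, the protector of centromeric cohesin, had 0, 1 and 2 UMIs in shControl and 14, 20 and 18 in shLmna libraries, and also passed without both libraries (adjusted p = 0.0002453). The other 3 were Shcbp1, a midbody protein gene (1.76), Haus3, of the augmin complex (1.57), and Tubgcp5, of the gamma-tubulin ring complex (1.41), and the last 2 did not pass with the GC correction (adjusted p = 0.0819 and 0.200). All 3 had low counts. Shcbp1 had 5, 14 and 24 UMIs in shControl and 36, 59 and 47 in shLmna libraries. Haus3 had 6, 3 and 9 against 22, 17 and 14, and Tubgcp5 had 8, 6 and 5 against 22, 15 and 12. Without both libraries with melanocyte transcripts these 3 were at 2.50, 2.29 and 1.58 (adjusted p = 0.0003092, 0.00541 and 0.0312).

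Genes of DNA replication and G1/S had 4 higher and 2 lower of 62 tested, or 9.68% against 13.7% of all tested genes, with a median of -0.05. The stricter criteria were met by the cyclin-dependent kinase inhibitors Cdkn1a and Cdkn1b, or 3.23% against 5.71% of all tested genes. Cdkn1a, which encodes p21, had 287, 246 and 231 normalized counts in shControl and 92.2, 102 and 87.2 in shLmna libraries, at -1.44 (SE 0.16, adjusted p = 4.568e-05 in edgeR), and at -1.56 without both libraries with melanocyte transcripts (adjusted p = 1.109e-05). Cdkn1b, which encodes p27, had 11.7, 8.5 and 9.2 against 18.6, 31.9 and 25.1, at 1.36 (SE 0.34, adjusted p = 0.0170), and did not pass with the GC correction (0.80, adjusted p = 0.120) or without both libraries with melanocyte transcripts (adjusted p = 0.0925).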

How the data were processed

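MARS-seq 3' libraries were made from bulk RNA. According to the submitters' processing notes and the methods, the authors trimmed reads with Cutadapt, mapped them to mm10 with STAR 2.4.2a in the UTAP pipeline and counted UMIs with a modified HTSeq-count in the last 1000 bases of RefSeq genes and 100 bases downstream. The deposited counts are raw whole numbers of UMIs for 10520 genes, and no gene stays below 6 UMIs in all libraries. The authors' ComBat-corrected log2 values and their DESeq2 comparison (fold changes and p-values) were not used. Library totals were 1846208 to 3242051 UMIs, and counts cover counting error only.

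Groups and replicate numbers came from the labels. In the titles, the shLmna libraries are named shRNA4. Genes were kept by filterByExpr (minimum count 10), scaled by TMM and tested with edgeR 4.0.16 in R 4.3.3 (quasi-likelihood test, Benjamini-Hochberg over 8969 genes, no replicate block). Normalized counts are counts scaled to the mean effective library size. In simulated libraries edgeR recovered 67.0% of 94 genes changed 2-fold and 99.0% of 101 changed 4-fold, with 9 false calls among 8903 genes. Alternatives were DESeq2 1.42.0, limma-voom (limma 3.58.1), other scalings and filters, thinning, a replicate block, a GC correction (loess, span 0.3, on the GC content of the counted end from GENCODE models of GRCm38, known for all 51 tested genes of the set) and leaving out each library. The pair of libraries with melanocyte transcripts was left out, or taken as a term, after seeing the data.

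The members and lists were chosen with earlier results of these data known. Values in every library are given for genes with an adjusted p under 0.05, for Ccnb1, Ccna2, Plk1, Aurka, Aurkb, Birc5, Cdc20, Mki67, Top2a and Foxm1, and for the highest and lowest Log2FoldChange. Of the other lists, genes meeting the stricter criteria are named. Further genes were named after their values were seen. Counted ends of Kif20a, Plk1, Prc1 and Ube2c overlap genes on the opposite strand, and that of Foxm1 overlaps Gm44596 and Tex52 on its own strand. Near-identical copies elsewhere in the genome were not searched for.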

Additional observations from a re-analysis of the deposited data

How the results depend on the processing

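The median Log2FoldChange of the set stayed above 0 in all 19 alternatives (0.085 to 0.194), and that of Lmna stayed between -1.26 and -1.13. Ccna2 passed in every fit (0.684 to 0.977). The counts of genes that passed were small and moved. With the pair of libraries with melanocyte transcripts as a term, 5 were higher and 3 lower (15.7% of the set, against 20.8% of all tested genes), of which Ckap5 and Kif20a were new on the lower side and Cks2, Ttk and Pttg1 on the higher side. With the GC correction added to that term, 5 were also higher and 3 lower (23.5% of all tested genes). Without both libraries 1 was higher and 1, Ckap5, was lower (3.92% of the set, against 13.2% of all tested genes). In counts thinned to the smallest library 0 were lower, as Cdc20 had an adjusted p of 0.0662 (12.0% of all tested genes passed). Leaving out each library in turn gave 1 to 4 higher and 0 to 2 lower, where 5.89% to 17.2% of all tested genes passed. Only without shControl replicate 3 did Mad2l1, Kif11 and Kif20b pass, and without shControl replicate 1 or 2, or shLmna replicate 2 or 3, Cdc20 did not. Without shLmna replicate 1, 1 gene, Cks2, met the stricter criteria, and across the libraries left out the count was 0 to 1.

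The share of UMIs in the set in shControl was 0.7228% among genes with a mean count of at least 50. Ccnb1 reversed to -0.168 with the GC correction, -0.165 with that correction and the melanocyte term, -0.121 with it and the replicate block, and -0.0266 without shControl replicate 2 (highest value among the libraries left out 0.418). Mki67, near 0, reversed to -0.028 in DESeq2, -0.0101 with the GC correction and the melanocyte term, -0.0453 with that term alone, -4.89e-05 under RLE scaling, -0.00337 without a filter, -0.0169 in thinned counts and -0.302 to 0.445 over the libraries left out. The cause was not tested. With the replicate block, 2 genes were higher and 1 lower, as without it, and Ccna2, Spc24 and Cdc20 were again the genes. The replicate numbers mark no stated pairing, and deviations of same-numbered libraries had r of 0.35, -0.11 and 0.0052. The widest intervals were those of Bub1, Mki67 and Tpx2.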
